A study of Mus musculus with 12 samples.

Results

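The proteasome genes described here are the rows of the expression table that the table classes as protein coding and whose symbol begins with Psma, Psmb, Psmc, Psmd, Psme, Psmf or Psmg followed by a digit. The rule took 49 of the 28987 genes in the table, of which 21062 are classed as protein coding, and it used names only, not expression. A further 3 rows match by symbol but are not classed as protein coding and were left aside. Of the 49 members, 46 reached 1 TPM (a TPM value is a length-corrected share of the library) in at least 3 libraries and were tested. The other 3 were Psma8, the alpha subunit of germ cells, at 0 to 4.15 TPM, Psmd8, a 19S lid subunit listed at 0 in all libraries but library 11 with 2.23 TPM, and Psmg3, a chaperone above 0 only in libraries 4 (12.3 TPM) and 2 (11.3 TPM). Psmb9, the immunoproteasome subunit that replaces Psmb6, was not analysed here, so the immunoproteasome is represented by Psmb8 and Psmb10. Psmc3ip is not a proteasome gene but a meiotic recombination factor with a similar symbol. Psme2b-ps, grouped here with the activators, is a copy of Psme2 with 76.5% of its 31-base stretches in common with it.

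The proteasome degrades proteins that carry ubiquitin chains. Its 20S core is a barrel with outer rings of alpha subunits, which gate the entrance, and inner rings of beta subunits, of which Psmb5, Psmb6 and Psmb7 hold the cutting sites, and the 19S cap, made of a ring of ATPases, a base and a lid, binds, unfolds and de-ubiquitinates the substrate. In cells of the immune system Psmb8, Psmb9 and Psmb10 can take the places of Psmb5, Psmb6 and Psmb7 in newly built cores, and together with the 11S activator of Psme1 and Psme2 they favour peptides for MHC class I. Neutrophils make most of their granule proteins in the bone marrow, before they enter the blood.

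The libraries came from neutrophils of FVB mice, sorted as CD11b+ F4/80- cells with high GR1, 6 h by the labels (the study's methods give other times) after 2 mL of thioglycollate into the peritoneum, which draws neutrophils from the marrow into the peritoneal cavity. Every mouse had received thioglycollate. The 4 groups of 3 libraries were bone marrow neutrophils of wild-type mice (BM WT, libraries 4, 5 and 6), peritoneal neutrophils of wild-type mice (PT WT, libraries 10, 11 and 12), and the same from MRP8-Bcl2 mice (BM Bcl2, libraries 1, 2 and 3, and PT Bcl2, libraries 7, 8 and 9). MRP8-Bcl2 mice carry human BCL2, a survival factor, under the regulatory regions of human MRP8, which are active in the myeloid lineage. The labels name macrophages as the source while the series design names neutrophils. No library was left without injection, so BM against PT compares sites within inflamed mice.

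Depth cannot be read from TPM, and the number of reads per library is unknown here. Between 9735 (library 7) and 14305 (library 11) genes were above 0. In the row of mouse Bcl2, 5 of the 6 libraries labelled Bcl2 held 58.6 to 333 TPM and the 6 WT libraries 0.219 to 2.37 TPM, but library 9, labelled PT Bcl2, held 0.695 TPM, which goes against its label. The summed level of 6 neutrophil markers was 187385 to 329508 TPM in BM WT and 14184 to 52473 TPM in PT WT. In MRP8-Bcl2 mice it was 75517 to 208820 TPM in BM and 18381 to 65750 TPM in PT, so PT lay below BM in both genotypes. In WT S100a8 (81902 to 153516 TPM in BM, 4495 to 27252 TPM in PT), S100a9 and Ly6g were lower in PT without overlap. Csf3r was higher there without overlap, and Cxcr2 and Mmp9 overlapped. The 5 macrophage markers with a row summed to 14.3 to 100 TPM over all libraries. A list of 6 granule genes of immature neutrophils (Mpo, Elane, Prtn3 and Ctsg of primary granules, Camp and Ltf of secondary granules) summed to 5600 to 15677 TPM in the 6 BM libraries and 39.9 to 106 TPM in the 6 PT libraries, with no overlap. The 4 erythroid markers with a row summed to 25.4 to 964 TPM in BM and 0 to 9.26 TPM in PT. The 4 B cell markers summed to 78.3 to 207 TPM in PT WT, above every BM WT library (at most 72.6 TPM). In MRP8-Bcl2 mice the B cell sum reached 75.9 TPM in BM and was 34.4 to 145 TPM in PT, which overlapped. Over all libraries the 4 T cell markers summed to 2.05 to 22.2 TPM and the 4 dendritic cell markers to 4.74 to 26.9 TPM. The table has 108 genes with a transcript that carries 31 or more A or T in a row, and these homopolymer genes took 8.93% to 24.1% of TPM in BM, 19.96% to 54.2% in PT WT and 15.5%, 60.2% and 65.6% in libraries 7, 8 and 9. The part of these differences in the results below was not tested, and fewer transcripts per cell and a changed mix of cells cannot be told apart in bulk samples.

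By the median member, the level was on average highest in BM Bcl2 and lowest in PT Bcl2. The median member stood at 40.9, 17.8 and 20.2 TPM in BM WT, at 13.2, 13.8 and 21.3 TPM in PT WT, at 23.0, 47.3 and 77.2 TPM in BM Bcl2 and at 4.62, 3.90 and 8.504 TPM in PT Bcl2. All 3 PT Bcl2 libraries lay below all others, while the other groups overlapped. In the 9 libraries outside PT Bcl2, 44 to 47 of the 49 members were above 0, against 32, 39 and 44 in libraries 7, 8 and 9. Within the TPM left after taking out the homopolymer genes, BM WT libraries gave the members 0.173% to 0.338%, PT WT libraries 0.189% to 0.233%, BM Bcl2 libraries 0.212% to 0.589% and PT Bcl2 libraries 0.171% to 0.231%. The summed share therefore overlapped between BM and PT in both genotypes, and in PT Bcl2 it rested on fewer genes: in library 7 Psme1 (224 TPM), Psme4 (186 TPM), Psmb10 (120 TPM) and Psme2 (118 TPM) stood above 100 TPM beside Psmd7 (103 TPM), while 17 members were listed at 0.

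**Figure D1:**
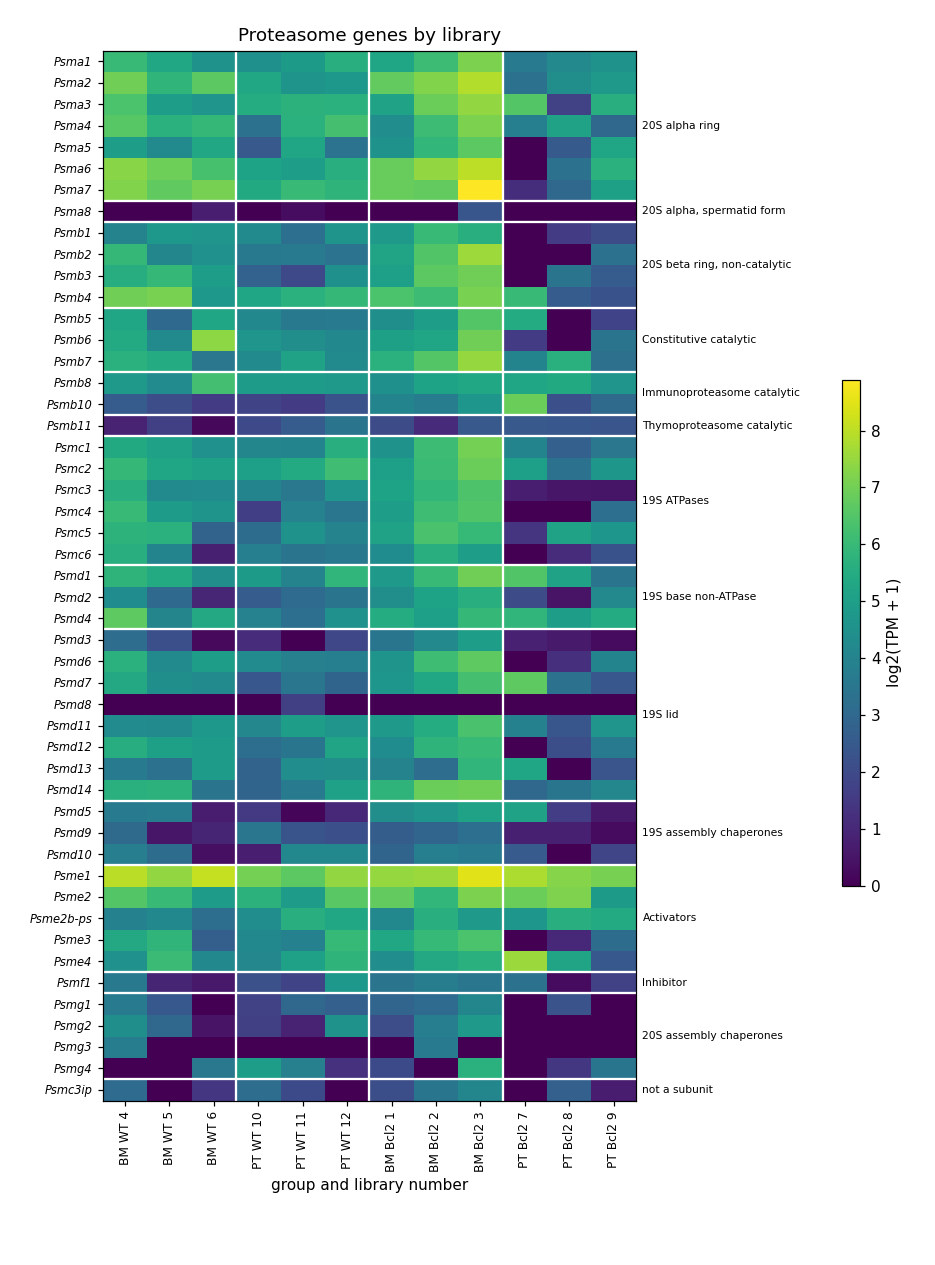
Level of all 49 members in the 12 libraries as log2(TPM + 1), with colour from 0 (dark) upward, rows grouped by role and columns by group and library number. The PT Bcl2 columns hold most of the dark cells of the alpha, beta and 19S rows. The row of Psme1 stays bright in every column, and those of Psmb8 and Psme2 hold no cell near 0.

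The first question is how the proteasome genes differ between neutrophils recruited to the peritoneum and those in the marrow. In MRP8-Bcl2 mice, 21 of the 46 tested members were lower in PT than in BM (limma on log2(TPM + 1), adjusted p under 0.05 and at least 2-fold) and 0 were higher. That is 45.7% of the members, against 19.1% of all 13456 tested genes called lower and 2.31% called higher. The median difference was -2.29 on the log2 scale over the members and -1.02 over all tested genes, and 3 of 46 members had a positive difference. In wild-type mice 0 members passed the test in either direction, where 1.59% of all genes were called higher and 1.22% lower. At an unadjusted p under 0.05, 2 members were higher in PT WT (Psmb11 and Psme2b-ps, 4.35% against 10.2% of all genes) and 4 lower (Psma2, Psmb3, Psmc4 and Psmd4, 8.7% against 6.32%).

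The count in MRP8-Bcl2 mice depends on the scaling between libraries. With each library centred on its median, 7 members were lower (15.2%, against 3.47% of all genes) and 2 were higher (Psmb11 and Psme2b-ps, 4.35% against 12.2%). Centring moved the median difference of all genes from -1.02 to 0.57, and that of the members from -2.29 to -0.70. Quantile normalization left 12 members lower (26.1%, against 5.79% of all genes), and leaving out the homopolymer genes also left 12 (26.1%, against 7.72%). Under each of these scalings the members' median was below that of all genes. Leaving out library 2 or library 3 left 12 members lower, leaving out library 9 left 20, and leaving out libraries 3 and 9 together, a choice made after seeing the data, left 13.

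The calls by role below are without centring, where 19.1% of all genes were called lower in PT Bcl2 and their median was -1.02. With centring only 7 of the 46 members were called lower. The centred medians were -2.63 (non-catalytic beta), -1.57 (ATPases), -1.51 (alpha) and -1.46 (lid), against 0.57 for all genes. The non-catalytic beta subunits, which build the inner rings, had the lowest median of the role groups with more than 1 member in MRP8-Bcl2 mice. It was -4.22 over 4 genes, and all 4 were called. Psmb2 was at 35.3, 89.0 and 190 TPM in BM Bcl2, was listed at 0 in libraries 7 and 8 of PT Bcl2 and was at 9.18 TPM in library 9. It fell by 5.30 on the log2(TPM + 1) scale (SE 0.91, adjusted p 0.00230). In WT it was at 59.7, 15.99 and 21.5 TPM in BM and 10.999, 11.8 and 9.55 TPM in PT, so the groups did not overlap there either, but the difference of -1.28 (SE 0.91, adjusted p 0.520) did not pass the test. Psmb3 was at 31.3, 99.0 and 124 TPM in BM Bcl2 against 0, 9.68 and 5.04 TPM in PT Bcl2, and at 46.2, 60.0 and 30.6 TPM in BM WT against 5.92, 2.88 and 21.3 TPM in PT WT. Its values in PT were under all those in BM in both genotypes, with differences of -4.20 (SE 0.91, adjusted p 0.00673) in MRP8-Bcl2 and -2.42 (SE 0.91, adjusted p 0.183) in WT mice. Psmb1 (-4.23, adjusted p 0.00197) and Psmb4 (-2.93, adjusted p 0.0309) completed the group.

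The ATPases of the 19S cap, which unfold the substrate and thread it into the core, had a median difference of -3.16 in MRP8-Bcl2 mice, and 4 of 6 were called lower. Psmc3 had the lowest adjusted p of all members. It was at 34.8, 58.6 and 84.3 TPM in BM Bcl2 and at 0.685, 0.439 and 0.425 TPM in PT Bcl2, a fall of 5.23 (SE 0.64, adjusted p 0.000435), whereas in WT it was at 46.7, 18.1 and 18.7 TPM in BM and 15.2, 10.95 and 23.7 TPM in PT, where the groups overlapped. Psmc4 was at 30.0, 69.3 and 87.6 TPM in BM Bcl2, was listed at 0 in libraries 7 and 8 and was at 8.504 TPM in library 9, a difference of -4.77 (SE 0.92, adjusted p 0.00412). In WT Psmc4 was at 62.4, 29.1 and 23.5 TPM in BM against 2.13, 14.5 and 10.2 TPM in PT, again without overlap, with -2.15 (SE 0.92, adjusted p 0.256). Psmc6 (-3.86, adjusted p 0.0166) and Psmc1 (-2.47, adjusted p 0.0268) were called too, each in 9 of the 12 fits with a library omitted. Psmc2 (-1.64) and Psmc5 (-2.09) did not pass the test.

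The alpha subunits had a median difference of -3.10 in MRP8-Bcl2 and -1.12 in WT mice, and 4 of 7 were called in the former. Psma7 was at 114, 109 and 476 TPM in BM Bcl2 and 1.22, 7.06 and 32.6 TPM in PT Bcl2, a fall of 4.43 (SE 0.83, adjusted p 0.00354). Psma6 was at 114, 175 and 257 TPM against 0, 9.003 and 50.7 TPM (-4.43, SE 1.00, adjusted p 0.00818). Both also had all PT libraries under all BM libraries in WT, where Psma7 went from 105 to 148 TPM in BM to 41.6 to 63.5 TPM in PT and Psma6 from 78.5 to 158 TPM to 30.0 to 46.9 TPM. Psma2 (-3.10, adjusted p 0.00329) and Psma1 (-2.02, adjusted p 0.0359) were the other alpha subunits called. Psma2 had the lowest adjusted p of the members in WT, at 123, 55.5 and 99.7 TPM in BM and 39.3, 23.5 and 25.6 TPM in PT (-1.58, SE 0.57, adjusted p 0.165). Psma5 (-3.14, adjusted p 0.0514) had 61.0% of its 31-base stretches in other genes' transcripts and is uncertain for that reason.

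The lid, which holds the de-ubiquitinating enzyme, had a median of -3.05 in MRP8-Bcl2 mice, with 4 of 7 tested members called. These were the scaffold subunits Psmd6 (-4.07, adjusted p 0.00745), Psmd3 (-3.63, adjusted p 0.00946) and Psmd12 (-3.46, adjusted p 0.0142) and Psmd14, the de-ubiquitinating enzyme itself (-3.05, adjusted p 0.0133). Psmd14 was at 54.6, 119 and 125 TPM in BM Bcl2 and 6.82, 9.99 and 16.3 TPM in PT Bcl2, with no overlap. Psmd7 went against the group in library 7, at 103 TPM against 9.12 and 4.39 TPM in libraries 8 and 9 and 24.7, 39.0 and 77.2 TPM in BM Bcl2. In the base none of the 3 non-ATPase members was called. Psmd4, a receptor for ubiquitin chains, was at 44.1, 31.8 and 60.1 TPM in BM Bcl2 and 57.0, 30.6 and 43.9 TPM in PT Bcl2, values that overlapped throughout (difference -0.04, 95% interval -1.48 to 1.39). In WT it was at 102, 15.6 and 40.5 TPM in BM and 14.4, 8.61 and 21.8 TPM in PT (-1.47, adjusted p 0.295).

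Among the assembly chaperones, which help to build the complex and are not part of it once complete, Psmd9 (-2.33, adjusted p 0.0441) and Psmg2 were called lower in MRP8-Bcl2 mice. Psmg2 was listed at 0 in all 3 PT Bcl2 libraries and at 3.31, 12.98 and 26.5 TPM in BM Bcl2, so no fold is given. Of the 12 fits with a library omitted, 7 did not call Psmd9 and 5 did not call Psmg2. Psmg4 had the highest difference of the members in WT (2.20, SE 1.45, adjusted p 0.478), at 0, 0 and 10.7 TPM in BM and 30.9, 13.8 and 1.43 TPM in PT, which overlapped. Psmd5 was among the 3 lowest in WT (-1.81, adjusted p 0.436), at 11.8, 12.5 and 0.619 TPM in BM and 1.87, 0.106 and 1.06 TPM in PT, and Psmf1, an inhibitor of the core, had a difference of 1.23 in WT (adjusted p 0.600) and -1.78 in MRP8-Bcl2 mice. None of these passed the test.

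**Figure D2:**
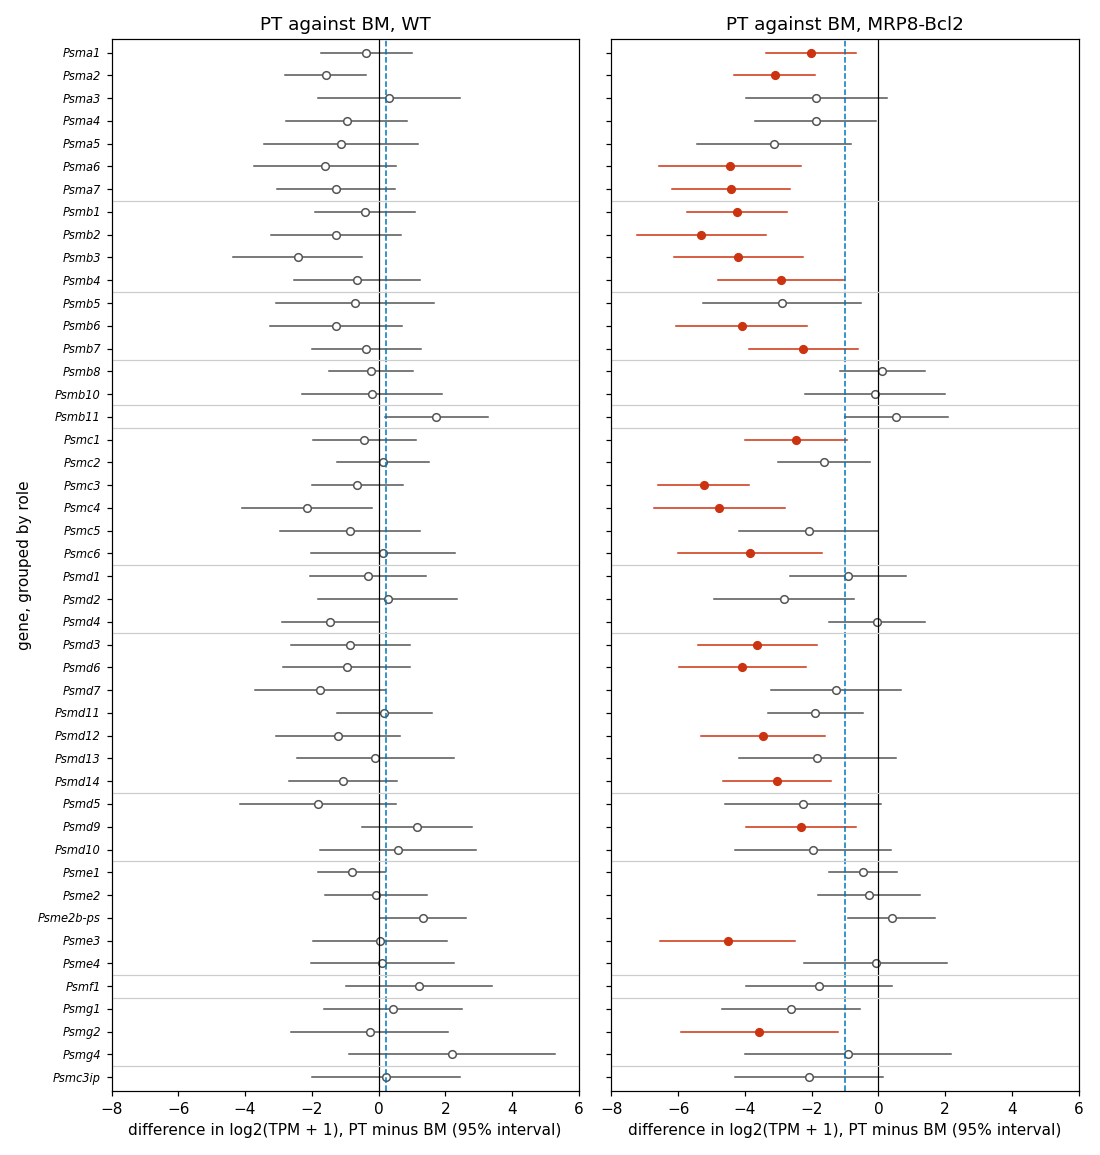
Difference between PT and BM in log2(TPM + 1) for the 46 tested members in WT (left) and MRP8-Bcl2 mice (right), as points with 95% intervals, filled where called, with the median of all tested genes dashed. In MRP8-Bcl2 mice 21 members are filled, all to the left of the dashed line at -1.02, while Psmb8, Psmb10, Psmb11, Psmd4, Psme1, Psme2, Psme2b-ps and Psme4 lie near 0, and in WT no member is filled.

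Libraries were also compared by rank alone. In WT, 8 of 46 members (17.4%) had all 3 PT libraries under all 3 BM libraries, against 7.97% of all genes, and 2 members (4.35%) had them above, against 14.9%. In MRP8-Bcl2 mice 27 members (58.7%) lay under, against 32.6%, and 0 above, against 5.18%. The 6 members under in both genotypes, which share no library, were Psma2, Psma6, Psma7, Psmb2, Psmb3 and Psmc4 (13% of members, 5.45% of all genes). In both genotypes 0 members lay above, against 3.28% of all genes. Over the 30 tested subunits of the core and cap, leaving out the immune and thymic forms, the median difference was -0.85 in WT and -2.99 in MRP8-Bcl2 mice. Leaving out the homopolymer genes moved the WT median of all 46 members from -0.39 to 0.10, with 25 of 46 positive in place of 15, and that of the 30 subunits to -0.39, while the median of all genes went from 0.22 to 0.64. In WT the direction of the members as a group therefore turned with the scaling, and they stayed below the median of all genes.

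The catalytic subunits are given by kind, and no test compared the kinds. The constitutive ones, Psmb5 (chymotrypsin-like, ENSMUSG00000022193), Psmb6 (caspase-like, ENSMUSG00000018286) and Psmb7 (trypsin-like, ENSMUSG00000026750), had differences of -2.88, -4.10 and -2.25 in MRP8-Bcl2 mice, and Psmb6 (adjusted p 0.00823) and Psmb7 (adjusted p 0.0480) were called. The immunoproteasome subunits Psmb8 (ENSMUSG00000024338) and Psmb10 (ENSMUSG00000031897) had differences of 0.11 (95% interval -1.16 to 1.39) and -0.10 (95% interval -2.21 to 2.00). In GRCm38, matched by these identifiers, the genes span chr14:54614119-54618022, chr11:70525367-70527858, chr2:38588036-38644087, chr17:34197721-34201454 and chr8:105935735-105938444 in that order.

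Psmb8 was the steadiest of the catalytic subunits. BM WT libraries held it at 26.3, 18.6 and 74.3 TPM, PT WT libraries at 28.8, 29.4 and 26.8 TPM, BM Bcl2 libraries at 21.2, 34.4 and 39.1 TPM and PT Bcl2 libraries at 36.4, 41.8 and 23.8 TPM. The 4 groups overlapped, and apart from library 6 all values lay within 18.6 and 41.8 TPM. For Psmb10, BM WT libraries gave 5.02, 3.29 and 1.90 TPM, PT WT libraries 2.51, 1.99 and 3.80 TPM, BM Bcl2 libraries 15.1, 12.8 and 24.6 TPM and PT Bcl2 libraries 120, 3.53 and 7.34 TPM. All BM Bcl2 values were above all WT values, and library 7 stood far above the rest, while libraries 8 and 9 lay under all BM Bcl2 values, so the difference near 0 in MRP8-Bcl2 mice rests on 1 library. The differences between genotypes, 2.08 in BM (adjusted p 0.673) and 2.17 in PT (adjusted p 0.381), did not pass the test.

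In WT mice Psmb6 was at 42.3, 17.5 and 165 TPM in the marrow and 24.0, 20.3 and 16.8 TPM in the peritoneum, which overlapped. In MRP8-Bcl2 mice it was at 32.7, 37.0 and 125 TPM in BM and 1.96, 0 and 9.79 TPM in PT, with every PT library below every BM library. For Psmb7, BM WT libraries gave 50.8, 43.2 and 10.6 TPM, PT WT libraries 18.0, 33.8 and 17.7 TPM, BM Bcl2 libraries 49.98, 91.0 and 179 TPM and PT Bcl2 libraries 15.0, 49.3 and 8.82 TPM. Its PT Bcl2 values also lay under its BM Bcl2 values, by 0.720 TPM at the closest pair, and 9 of the 12 fits with a library omitted did not call it. Psmb5 was listed at 37.6, 7.33 and 37.6 TPM by the BM WT libraries, 17.0, 10.98 and 11.96 TPM by the PT WT libraries, 20.5, 29.9 and 91.6 TPM by the BM Bcl2 libraries and 43.1, 0 and 2.48 TPM by the PT Bcl2 libraries. These groups overlapped, the difference in MRP8-Bcl2 mice did not pass the test (adjusted p 0.0756), and 71.7% of the 31-base stretches of Psmb5 occur in transcripts of other genes, mostly processed copies, so its level is uncertain.

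**Figure D3:**
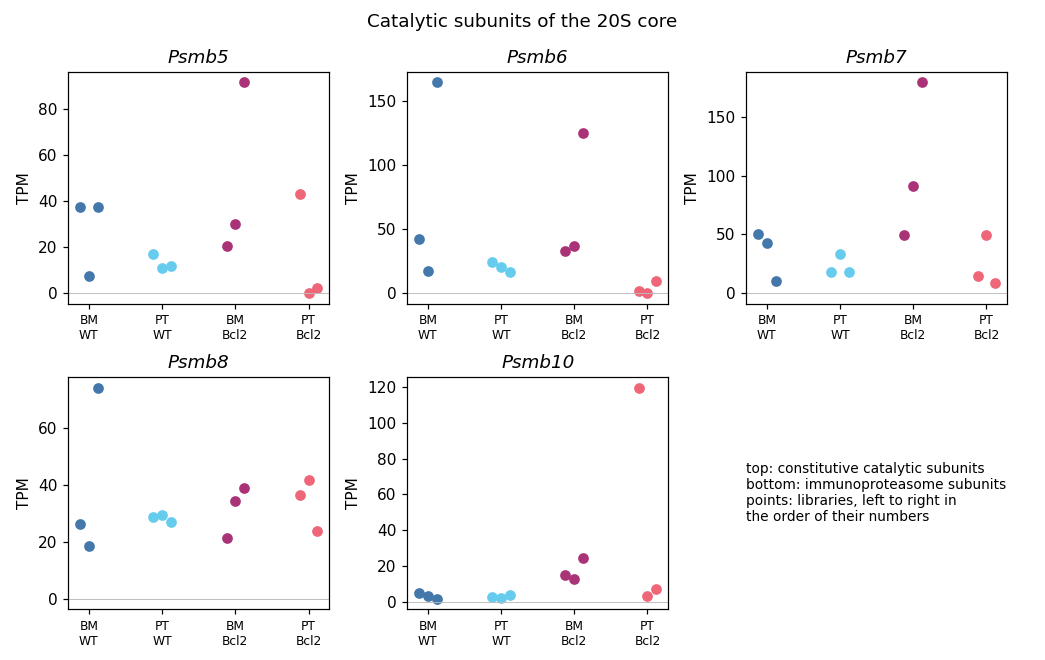
TPM of the catalytic subunits Psmb5, Psmb6, Psmb7, Psmb8 and Psmb10, each point 1 library, in the 4 groups. Psmb6 and Psmb7 lie lower in every PT Bcl2 than in every BM Bcl2 library, Psmb8 lies at 18.6 to 41.8 TPM in all libraries but library 6, and the PT Bcl2 point of Psmb10 at 120 TPM is library 7.

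Ratios within a library do not depend on how libraries are scaled against each other. The share of Psmb8 and Psmb10 in the summed TPM of Psmb5, Psmb6, Psmb7, Psmb8 and Psmb10 was 19.3%, 24.3% and 26.4% in BM WT (23.3% ± 3.6, SD, n = 3) and 34.6%, 32.6% and 39.7% in PT WT (35.6% ± 3.7). In MRP8-Bcl2 mice it was 26.0%, 23.0% and 13.9% in BM (21.0% ± 6.3) and 72.2%, 48.0% and 59.7% in PT (59.9% ± 12.1). The PT libraries lay above the BM libraries in both genotypes, and PT Bcl2 above PT WT, without overlap. These shares are given as a description, with no test, and in library 8 Psmb5 and Psmb6 were listed at 0. With Psmb8 alone against Psmb5, Psmb6 and Psmb7, which removes the high Psmb10 of library 7, BM WT libraries gave 16.8%, 21.4% and 25.9%, PT WT libraries 32.8%, 31.2% and 36.6%, BM Bcl2 libraries 17.1%, 17.9% and 8.99% and PT Bcl2 libraries 37.7%, 45.9% and 53.1%, again with PT above BM. Shares of matched pairs overlapped between BM and PT in both genotypes. Psmb8 held 41.1% to 71.7% of the sum of Psmb8 and Psmb5 in BM WT against 62.9% to 72.9% in PT WT, and 29.9% to 53.5% in BM Bcl2 against 45.8% to 100% in PT Bcl2. Psmb10 held 7.08% to 15.2% of the sum of Psmb10 and Psmb7 in BM WT against 5.55% to 17.6% in PT WT, and 12.04% to 23.2% in BM Bcl2 against 6.69% to 88.8% in PT Bcl2. Over all beta subunits the WT groups overlapped as well, with Psmb8 and Psmb10 at 7.70%, 6.63% and 19.5% in BM and 19.1%, 17.9% and 15.2% in PT, so the separation in WT depends on the denominator. In the sums behind these shares, Psmb8 and Psmb10 together had 31.3, 31.4 and 30.6 TPM in PT WT and 31.3, 21.8 and 76.3 TPM in BM WT, while Psmb5, Psmb6 and Psmb7 had 59.1, 65.1 and 46.5 TPM in PT WT and 131, 67.97 and 213 TPM in BM WT.

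**Figure D4:**
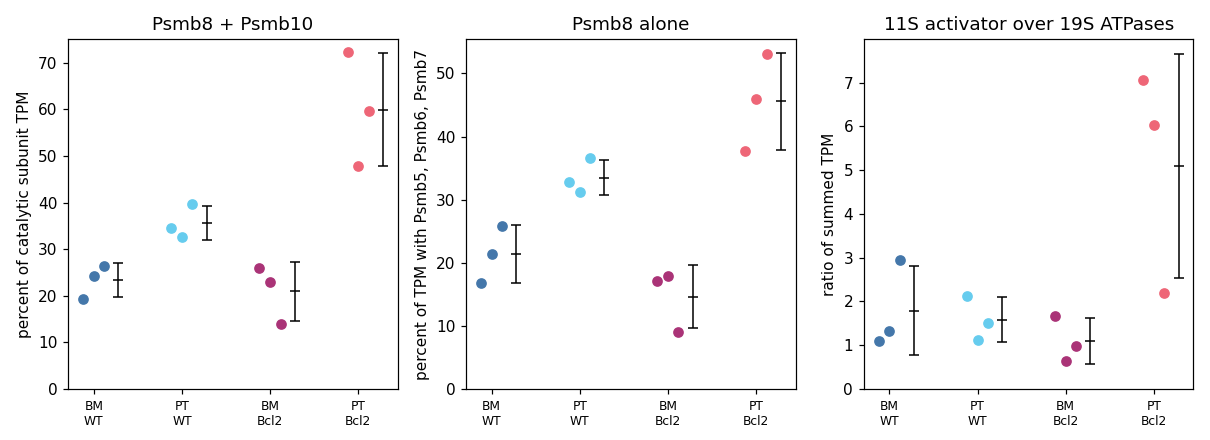
Within-library ratios by group, with points for libraries and bars for the mean and SD (n = 3). The left and middle panels show the percent of catalytic subunit TPM from Psmb8 and Psmb10 and from Psmb8 alone, where PT lies above BM in both genotypes, and the right panel the summed TPM of Psme1 and Psme2 over that of Psmc1 to Psmc6, where libraries 7 and 8 stand at 7.05 and 6.02.

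The activators, which open the core as alternatives to the 19S cap, differed among themselves. Psme1, a subunit of the 11S activator, had the highest level of any member in 11 of the 12 libraries (Psma7 was higher in library 3), at 252, 176 and 277 TPM in BM WT, 132, 99.7 and 172 TPM in PT WT, 180, 190 and 362 TPM in BM Bcl2 and 224, 156 and 134 TPM in PT Bcl2. The PT WT values lay under the BM WT values (-0.81, SE 0.47, adjusted p 0.421), and those of PT Bcl2 and BM Bcl2 overlapped (-0.47, 95% interval -1.48 to 0.54). For its partner Psme2, BM WT libraries gave 91.5, 64.8 and 28.4 TPM, PT WT libraries 51.5, 28.3 and 98.3 TPM, BM Bcl2 libraries 107, 58.3 and 140 TPM and PT Bcl2 libraries 118, 145 and 27.6 TPM, which overlapped throughout. Psme3, which forms the nuclear activator not tied to antigen processing, was at 39.5, 60.8 and 82.8 TPM in BM Bcl2 and 0, 0.988 and 7.86 TPM in PT Bcl2 (-4.51, SE 0.95, adjusted p 0.00609), and at 40.9, 55.0 and 5.47 TPM in BM WT and 16.9, 13.9 and 61.0 TPM in PT WT (0.04, SE 0.95). Psme4, a large single-chain activator, was at 186, 35.3 and 4.40 TPM in PT Bcl2 and at 19.5, 40.3 and 49.7 TPM in BM Bcl2. As the ratio of summed Psme1 and Psme2 to the 6 ATPases Psmc1 to Psmc6, BM WT libraries gave 1.10, 1.32 and 2.95, PT WT libraries 2.13, 1.11 and 1.51, BM Bcl2 libraries 1.68, 0.640 and 0.976 and PT Bcl2 libraries 7.05, 6.02 and 2.20. PT Bcl2 lay above BM Bcl2 without overlap, and the WT groups overlapped.

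Psmb11, the catalytic subunit of the thymus, was low but above 0 in every library, at 0.860, 2.23 and 0.133 TPM in BM WT, 2.88, 5.02 and 9.74 TPM in PT WT, 3.17, 1.11 and 4.65 TPM in BM Bcl2 and 4.62, 4.36 and 4.09 TPM in PT Bcl2. Of its 4716 31-base stretches, 257 (5.4%) occur in transcripts of other genes, 2680 in all, and reads there cannot be assigned to it. Psmb11 was higher in all PT WT than in all BM WT libraries (1.74, SE 0.72), a difference that did not pass the adjusted test (adjusted p 0.242). In WT mice Psme2b-ps was at 14.0, 16.8 and 8.19 TPM in the marrow and 19.6, 48.1 and 38.2 TPM in the peritoneum (1.34, SE 0.61, adjusted p 0.290), again without overlap, and its reads cannot be separated from those of Psme2 where the sequences are the same.

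The second question is whether the transgene went with a difference in these genes at each site. In BM, 0 members were called between genotypes, where 0.0149% of all genes were called higher and 0.00743% lower in Bcl2. At an unadjusted p under 0.05, 4 members were higher in BM Bcl2 (8.7%, against 6.61% of all genes) and 0 lower (against 0.751%), and 44 of 46 had a positive difference, with a median of 0.91 against 0.49 for all genes. The highest were Psmd3 (2.35, SE 0.84), Psmd2, a base subunit that docks ubiquitin carriers (2.28, SE 0.98), and Psmb10 (2.08, SE 0.99), each with an adjusted p of 0.673. Psma4 (-0.19) and Psmb8 (-0.12) were the only negative ones, and Psme1 came next (0.01). With each library centred, 31 of 46 members were positive and the median was 0.17. Over all genes it was then -0.25, with 5144 of 13456 positive, so the members stayed above the median of all genes. In BM Bcl2 library 3 held the highest value of 32 members among the 12 libraries, and without library 3 the median over the members was 0.46. The TPM of Mpo, a primary granule gene of immature cells, came to 1743, 263 and 622 for the BM WT libraries against 1003, 1874 and 3697 for BM Bcl2 libraries 1 to 3, which over these 6 libraries is the order of the median TPM over the members. Elane, Prtn3 and Ctsg were also highest in library 3, while Camp and Ltf were not. Their part in the result was not tested.

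Library 9 was counted by its label, PT Bcl2, though its 0.695 TPM in the row of Bcl2 lay within the WT range. In PT, 0 members were called, where 0% of all genes were called higher and 0.0297% lower in Bcl2. At an unadjusted p under 0.05, 2 members were higher in PT Bcl2 (Psmb10 and Psmd4, 4.35% against 0.446% of all genes) and 13 lower (28.3% against 12.3%), and the median was -1.12 against -0.67 for all genes. The lowest were Psmc3 (-3.48, SE 0.64, adjusted p 0.0757), Psme3 (-3.29, SE 0.95, adjusted p 0.253) and Psmb1 (-2.83, SE 0.70, adjusted p 0.169), and the highest Psmb10, Psmd5 (1.56, SE 1.09, adjusted p 0.552) and Psmd4 (1.54, SE 0.67, adjusted p 0.364). Psmc3 was at 15.2, 10.95 and 23.7 TPM in PT WT and under 0.7 TPM in the 3 PT Bcl2 libraries. It passed the test, as the only member, with the homopolymer genes left out. Under centring the median over the members in PT was -0.05, against 0.40 for all genes, so the members stayed below the median of all genes. Without centring, leaving out any 1 library, library 9 included, gave 0 called members and a median of -1.29 to -0.84.

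The difference between the genotypes in the change from BM to PT was tested as an interaction. No member passed it (lowest adjusted p 0.140, Psmc3, at -4.59 with SE 0.90), where 0% of all genes passed higher and 0.0149% lower. At an unadjusted p under 0.05, 13 members were lower (28.3%, against 16.6% of all genes) and 0 higher (against 0.364%). The 21 falls in MRP8-Bcl2 mice were thus not shown to differ from the changes of the same genes in WT, for which the intervals are wide: for Psmb2 the WT interval ran from -3.23 to 0.66.

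The genes around the proteasome were described from a list of 34, all tested, which holds ubiquitin genes, activating enzymes, proteasome-bound factors, the Vcp segregase, transcriptional regulators and class I genes. In WT 1 of 34 was called higher in PT, Nfe2l2, and 0 lower, against 1.59% and 1.22% of all genes. In MRP8-Bcl2 mice 2 were called higher, Nfe2l2 and Tap2 (5.88%, against 2.31% of all genes), and 11 lower. In both comparisons between genotypes and in the interaction 0 were called. Nfe2l2, a stress-activated transcription factor that can raise proteasome genes through antioxidant response elements, had 151, 163 and 148 TPM across BM WT, 743, 469 and 1012 TPM across PT WT, 135, 137 and 123 TPM across BM Bcl2 and 1735, 470 and 466 TPM across PT Bcl2. It rose by 2.19 (SE 0.53, adjusted p 0.0385) in WT and by 2.45 (SE 0.53, adjusted p 0.00694) in MRP8-Bcl2 mice, with all PT above all BM libraries. With libraries centred on their medians the WT call was lost (1.98, adjusted p 0.111). Nfe2l1, the factor that restores proteasome genes when the proteasome is short, did not pass the test (0.20 in WT, -1.69 in MRP8-Bcl2 mice), while Ddi2, the protease that activates it, fell by 2.81 in the latter.

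The 11 genes called lower in MRP8-Bcl2 mice were 32.4% of the list, against the 19.1% of all genes. With libraries centred on their medians 0 of the 34 were called lower, against 3.47% of all genes. The 5 then called higher were Nfe2l2, Tap2, B2m, Irf1 and Ngly1, where 12.2% of all genes were called higher. Of the proteasome-associated genes 5 of 14 were called lower, and of the segregase genes 3 of 3. These were Vcp (-3.40), which extracts ubiquitinated proteins, with its cofactors Nploc4 (-3.34) and Ufd1l (-2.61), the shuttle receptors Ubqln1 (-3.15) and Ubqln4 (-2.82), the cap receptor Adrm1 (-3.16), the de-ubiquitinase Uchl5 (-3.82) and Txnl1 (-3.18), a thioredoxin bound to the cap. Among the other proteasome-associated genes, Ubqln2 (-1.36) and the de-ubiquitinase Usp14 (-0.42) did not pass the test. Also called were the ubiquitin and ribosomal fusion gene Rps27a (-2.57), Ddi2, and Irf8 (-3.43), an interferon regulatory factor. Ubb, a polyubiquitin gene, did not pass the test in either genotype (0.31 in MRP8-Bcl2 mice). Tap2, a chain of the transporter that carries peptides made by the proteasome, was at 7.16, 7.80 and 3.73 TPM in BM Bcl2 and 21.1, 55.9 and 150 TPM in PT Bcl2 (3.04, SE 0.96, adjusted p 0.0372), and B2m, the class I light chain, was at 1192 to 1893 TPM in BM Bcl2 and 2873 to 3737 TPM in PT Bcl2, without overlap (1.07, adjusted p 0.0571).

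**Figure D5:**
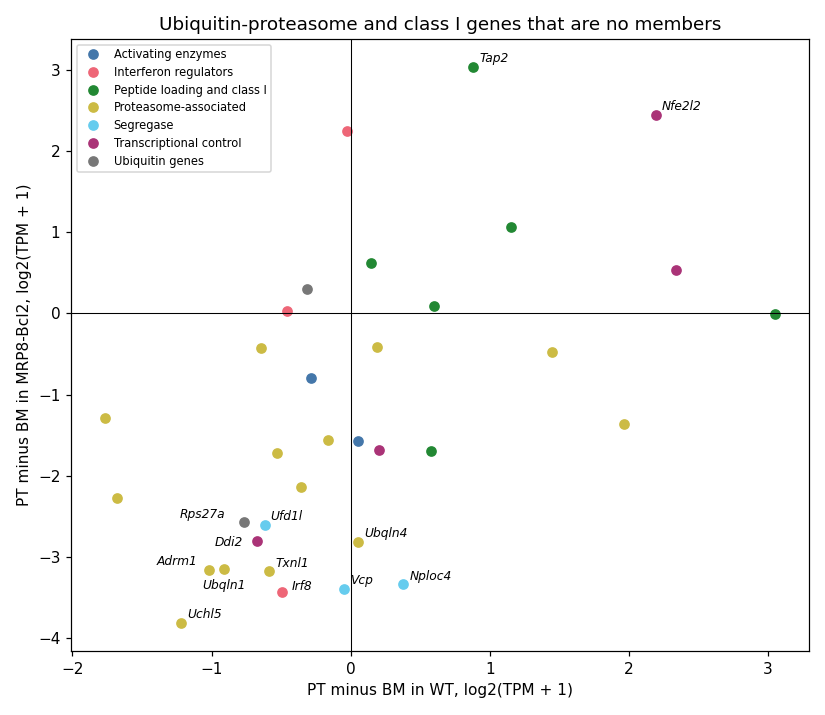
Difference between PT and BM in log2(TPM + 1) of the 34 surrounding genes in WT (x axis) and MRP8-Bcl2 mice (y axis), coloured by list, with names for those called in either. Nfe2l2 is at 2.19 and 2.45, and the 11 genes called lower in MRP8-Bcl2 mice lie below -2.5 on the y axis.

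Because Nfe2l2 was higher in PT and Psmb8 is an interferon-responsive gene, the promoter windows of the members were searched for letters of 4 motifs on both strands. The windows, from RefSeq on GRCm38.p6, run from 250 bases before to 50 after the start and matched 41 of the 49 members. The antioxidant response element (TGACNNNGC) occurred in 6 of the 41 (14.6%, against 14.0% of 27025 genes with a window), namely Psmb5, Psmb6, Psmc6, Psmd12, Psmd9 and Psme4. The interferon-stimulated element core (GAAANNGAA) occurred in 7 (17.1%, against 9.76%), the gamma-activated site (TTCNNNGAA) in 3 (7.32%, against 9.55%) and the CCAAT box in 14 (34.1%, against 41.1%). Of the 6 members with an antioxidant response element, Psmb6, Psmc6, Psmd9 and Psmd12 were called lower in PT Bcl2 and Psmb5 and Psme4 were not. Of all tested members 45.7% were called lower there, and a link to the motif was not tested. Stretches upstream of the start are shown for 4 of these 6 members and for Psmb8, a catalytic member whose groups overlapped. Each reads 5′ to 3′ along the strand of the gene, with the match in capitals, in reverse complement for Psmd12.
Psmb5, chr14:54618018-54618058, minus strand: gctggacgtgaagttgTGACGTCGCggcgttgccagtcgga
Psmb6, chr11:70525332-70525356, plus strand: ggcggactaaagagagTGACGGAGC
Psmd9, chr5:123228143-123228183, plus strand: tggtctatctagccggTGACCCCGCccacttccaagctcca
Psmd12, chr11:107479278-107479305, plus strand: tctGCTGTGTCAcatttgcccccctcag
Psmb8, gamma-activated site, chr17:34198082-34198122, plus strand: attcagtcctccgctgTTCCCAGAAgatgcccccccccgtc
The match begins 47 bases before the start in Psmb5, 9 in Psmb6, 31 in Psmd9, 247 in Psmd12 and 97 in Psmb8. No printed match overlapped a match to another motif. The matches describe letters only.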

How the data were processed

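RNA of sorted neutrophils was amplified and sequenced by the authors in 12 libraries, run as 1 pool in 1 lane, and the deposited values are log2(TPM + 1) per gene from AltAnalyze, with the version, genome build and annotation not given in the sources used here. The authors' fold changes, p-values and group averages were not used, nor was a file of estimated counts and TPM of 1 library whose sample is not named (2 columns). Values were turned back to TPM. The 13456 genes that reached 1 TPM in 3 or more libraries were fitted as log2(TPM + 1) with limma 3.58.1 in R 4.3.3, with the 4 groups in 1 model, a variance prior with a trend, 5 comparisons and Benjamini-Hochberg adjustment over all tested genes. A gene was called at an adjusted p under 0.05 and at least 2-fold, and the interaction at an adjusted p under 0.05. A fold on the log2(TPM + 1) scale understates changes of low genes. The fit was tested on simulated data. Named were Psmb5 to Psmb10, each member called, and the 3 highest and 3 lowest differences of each comparison of 2 groups. The 12 libraries come from the labels and column headings, nothing links a column to a mouse, and p-values measure the spread between these libraries. The members and lists were chosen with earlier results of these data known. Shared sequence was counted as 31-base stretches in GENCODE M21 transcripts. A few genes of the list around the proteasome are not reported here.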

Additional observations from a re-analysis of the deposited data

How the results depend on the processing

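The count of members lower in PT than in BM of MRP8-Bcl2 mice, 21, fell to 7 with libraries centred on their medians, 12 with quantile normalization or without the homopolymer genes, 12 to 23 when 1 library was left out (12 without library 2 or library 3) and 13 without libraries 3 and 9, a choice made after seeing the data. Centring gave 2 members higher in that comparison, against 0. In Bcl2 against WT in PT, 1 member was lower with a pseudocount of 0.1 and 1 without the homopolymer genes, against 0. Leaving the members of mostly shared sequence out of the count, also chosen after seeing the data, left it at 21. The median over the members in PT against BM of MRP8-Bcl2 mice, -2.29, was -3.13 with a pseudocount of 0.1, -0.70 with centring, -1.36 with quantile normalization and -2.66 to -2.03 with 1 library left out. For the interaction, -2.12, it was -2.83, -0.31 and -1.01 under the same settings and -2.59 to -1.61. In Bcl2 against WT the median over the members was 0.17 in BM and -0.053 in PT with centring, against -0.25 and 0.40 for all genes. With quantile normalization it was -0.42 in PT, against 0.001 for all genes. With 1 library left out it was 0.46 to 1.36 in BM and -1.29 to -0.84 in PT. For PT against BM in WT it was then -0.75 to -0.21. Taken over all beta subunits, the share of Psmb8 and Psmb10 averaged 44.8% in PT Bcl2 against 9.02% in BM Bcl2, and 17.4% in PT WT against 11.3% in BM WT, where the libraries then overlapped (19.5% in library 6, above every PT WT library), below the share of the catalytic subunits because the denominator is larger. With 1 library left out, the share of the catalytic subunits averaged 21.8% to 25.3% (BM WT), 33.6% to 37.2% (PT WT), 18.4% to 24.5% (BM Bcl2) and 53.8% to 65.9% (PT Bcl2). The cause of the other differences was not tested. No paired analysis was possible because the library columns carry no replicate number or mouse. Marrow and peritoneal cells were, by the study's methods, taken from the same mice, and the fits treat their libraries as independent. Depth is unknown, values listed at 0 in libraries 7 and 8 may be failed estimates, 3 libraries a group leave wide intervals, and Psmb5, Psma5 and Psme2b-ps share most of their sequence with other genes.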
